A study of Mus musculus with 2 samples.

Results

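The cells here were chosen as gamma delta T cells and Zbtb16-expressing innate T cells among immune cells sorted from mouse lungs with melanoma metastases. They were 112 of 20364 kept barcodes, 41 of 10313 in the C435A tumour library and 71 of 10051 in the WT tumour library. The cells were chosen by measured values: at least 500 UMIs (unique molecular identifiers, each marking a captured RNA molecule), under 20% mitochondrial UMIs, and at least 2 UMIs over the CD3 genes Cd3d, Cd3e and Cd3g. They also had no UMI of Cd8b1, Foxp3, Ncr1, Klre1 or Cd79a, and at least 2 UMIs over the 4 innate genes Trdc, Trgc1, Cd163l1 and Zbtb16. Cd163l1 is listed as Scart1 in the files and was matched by its gene ID. Values of these genes are therefore a description of the choice and support nothing else.

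The lungs came from C57 mice that bore metastases of the mouse melanoma line B16F10, and cells positive for CD45 and negative for the dead-cell dye 7-AAD were sorted for single-cell RNA sequencing. The tumour cells of one library carried IRF7 with the change C435A and those of the other carried wild-type IRF7, a transcription factor that drives type I interferon production. The labels give no genotype for the immune cells, name both the BD Rhapsody and the 10x Chromium capture systems, and read melanoma cell for the cell type although the sort was for CD45. Each group was 1 library, and the sources used here give neither the number nor the age of the animals, so no difference has a replicate check and all intervals cover counting error only.

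Gamma delta T cells carry a T cell receptor of a gamma and a delta chain in place of the alpha and beta chains of conventional T cells. Many leave the thymus already committed to a cytokine programme: in mice, one kind makes IL-17, homes to barrier tissues such as the lung and carries the scavenger receptor Cd163l1, while another makes interferon gamma. Zbtb16 encodes PLZF, the transcription factor that sets the innate-like state of natural killer T cells, mucosal-associated invariant T cells and some gamma delta T cells. Transcripts of the gamma constant genes also occur in T cells with an alpha beta receptor, so they do not by themselves mark a gamma delta cell.

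The libraries held 59615672 UMIs over 10373 barcodes for C435A and 54934397 UMIs over 10156 barcodes for WT. The innate T cells held 174274 UMIs with a median of 3311 per cell (range 1359 to 14318) in the C435A library, and 364477 UMIs with a median of 2989 (range 1231 to 40452) in the WT library. Their median mitochondrial shares were 1.38% and 1.46% in the C435A and WT libraries. The libraries shared 24 barcodes, and 0 of these were innate T cells. The main comparison cells were the other T cells, which passed every other part of the rule but had 0 UMIs of the 4 innate genes: 1427 in the C435A library with a median of 3143 UMIs and 1592 in the WT library with a median of 2519.5 UMIs. B cells, with at least 2 UMIs of Cd79a, served as cells that should lack T cell genes, and numbered 2297 with a median of 2270 UMIs in the C435A library and 2761 with a median of 2008 UMIs in the WT library. Levels are in CPM, the UMIs of a gene per 1000000 UMIs summed over the cells of a group. Genes singled out from gene lists were chosen after their values were seen.

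The innate T cells chosen by the rule were a smaller share of the C435A library, but the size of the difference depended on depth and on how mixed cells were treated. They made up 0.398% of kept barcodes there (95% Clopper-Pearson interval 0.285% to 0.539%) and 0.706% in the WT library (0.552% to 0.890%), a difference of -0.309 percentage points (Newcombe interval -0.524 to -0.0996). Of the 4716 and 4364 CD3-positive barcodes of the C435A and WT libraries, they were 0.869% and 1.63%, a difference of -0.758 points (-1.24 to -0.288). A rule of 2 UMIs depends on depth, so each barcode was also thinned to 1000 UMIs before the rule was applied. That left 21 of 10018 barcodes in the C435A library and 26 of 9769 in the WT library, and the difference was then -0.0565 points with an interval of -0.204 to 0.0875. Without cells that held at least 2 UMIs of 25 defining markers of other lineages, the difference in kept barcodes was -0.168 points (-0.355 to 0.0152). Without the exclusion genes it was -0.255 points (-0.553 to 0.0408), and 102 barcodes of the C435A library and 125 of the WT library had both sums. Among these, 41 and 31 of the C435A and WT libraries held Cd8b1, and 27 and 15 held Ncr1 or Klre1.

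Trdc, the constant gene of the delta chain, had the most UMIs of the genes used in the choice, with 136 UMIs in 23 of 41 cells of the C435A library and 356 UMIs in 54 of 71 cells of the WT library. Trgc1, a constant gene of the gamma chain, had 64 UMIs in 26 C435A cells and 95 UMIs in 31 WT cells. Zbtb16 had 30 UMIs in 15 C435A cells and 32 UMIs in 16 WT cells. Cd163l1 was found in the fewest cells, with 29 UMIs in 9 C435A cells and 41 UMIs in 10 WT cells. The sum over the 4 genes had a median of 4 UMIs and a highest value of 21 in the C435A library, and a median of 5 and a highest value of 37 in the WT library.

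There were 11 and 24 cells with a sum of 2 in the C435A and WT libraries, just inside, and 40 and 27 cells with a sum of 1, just outside. Just inside, the gamma constant gene Trgc4, which the rule did not use, was at 132 and 157 CPM in the C435A and WT libraries, and just outside at 8.22 and 56.6 CPM. These levels rested on 4 of 11 C435A cells and 4 of 24 WT cells just inside, and on 2 of 40 and 2 of 27 cells just outside. Trac, the alpha chain constant gene, was at 638 and 395 CPM just inside and at 621 and 714 CPM just outside. Ramp1 was at 264 and 306 CPM just inside and at 86.4 and 56.6 CPM just outside. Tmem176b was at 264 and 209 CPM just inside and at 82.2 and 261 CPM just outside, so in the WT library it was not lower just outside.

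By the innate genes they held, the cells fell into 4 exclusive subsets. The Cd163l1-positive subset held 9 C435A cells and 10 WT cells. The Trdc-positive subset, without Cd163l1, held 15 C435A cells and 44 WT cells. The Zbtb16-positive subset, with neither Trdc nor Cd163l1, held 14 C435A cells and 11 WT cells. The remaining 3 C435A cells and 6 WT cells had Trgc1 alone, which by itself does not mark a gamma delta cell. Since the genes of the rule define the subsets, their shares are a description. The Zbtb16-positive subset was 34.1% of the innate T cells in the C435A library and 15.5% in the WT library. The Trdc-positive subset was 36.6% of innate T cells in the C435A library and 62.0% in the WT library. For the Cd163l1-positive subset the shares were 22.0% and 14.1% in the C435A and WT libraries. After thinning to 1000 UMIs, 20 of the 21 C435A cells and 25 of the 26 WT cells that still met the rule had Trdc, and few cells chosen by the less abundant genes were left.

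**Figure D1:**
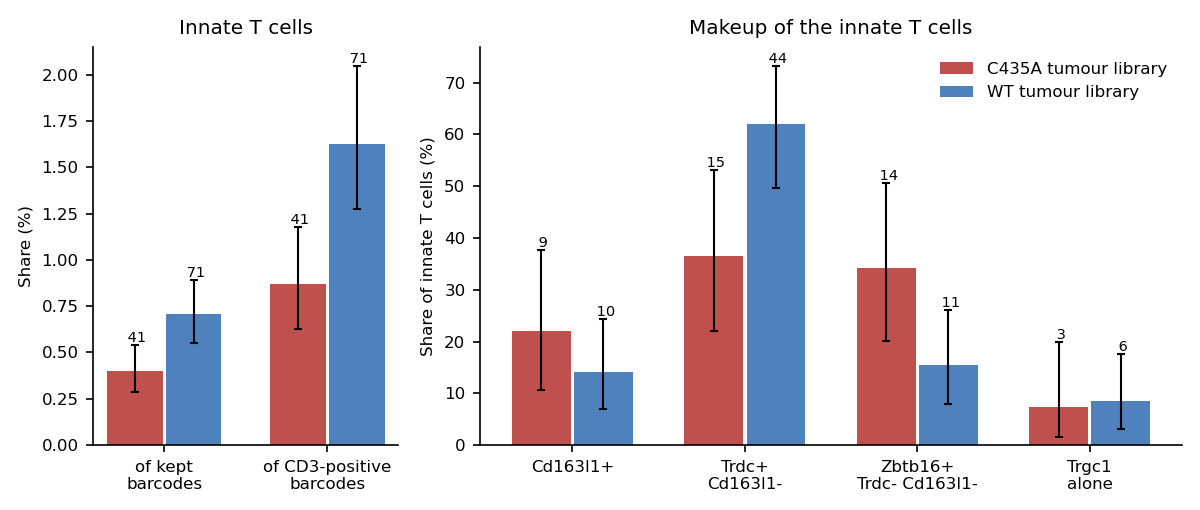
The left panel plots the share (%) of innate T cells among kept and CD3-positive barcodes, and the right panel the share (%) of each subset among innate T cells, for the C435A (red) and WT (blue) tumour libraries, with 95% Clopper-Pearson intervals and cell numbers above the bars. The innate T cells were 0.398% of kept barcodes in the C435A library and 0.706% in the WT library, and the Zbtb16-positive subset was 34.1% of them in the C435A library and 15.5% in the WT library.

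Receptor genes that the rule did not use were of both kinds: gamma constant genes stood above other T cells, and alpha chain transcripts were found in about as many cells. Trgc4 had 36 UMIs in 20 C435A cells and 78 UMIs in 28 WT cells. Its level was 207 and 214 CPM in the innate T cells of the C435A and WT libraries, against 2.97 and 2.65 CPM in other T cells, and it stood 6.12 and 6.33 log2 units above them. Trgc2, another gamma constant gene, was at 178 and 244 CPM in innate T cells and at 1.25 and 2.65 CPM in other T cells. Trgc1 and Trgc2 are close copies of each other, and how the authors' counting split reads between them is not given in the sources used here. Variable segments had few UMIs: Trgv2 had 5 UMIs in 4 C435A cells and 20 UMIs in 11 WT cells. Trdv4, the delta chain segment of fetal-type IL-17 gamma delta cells in mice, had 2 UMIs in 2 C435A cells and 4 UMIs in 3 WT cells, all of them in the Cd163l1-positive subset. Trdv1 had 0 UMIs in C435A cells and 5 UMIs in 3 WT cells, all 3 in the Trdc-positive subset.

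Trac had 75 UMIs in 21 of the 41 C435A cells and 109 UMIs in 34 of the 71 WT cells. Innate T cells of the C435A and WT libraries had 430 and 299 CPM of Trac, other T cells 953 and 763 CPM, and B cells 9.23 and 5.63 CPM. Trac was thus lower in innate T cells than in other T cells in both libraries, by -1.15 and -1.35 log2 units, and far above its level in B cells. After thinning to 1000 UMIs it was seen in 26.8% of innate T cells in both libraries, in 55.4% and 54.3% of other T cells and in 1.10% and 0.656% of B cells of the C435A and WT libraries. Unthinned, the shares of innate T cells were 51.2% and 47.9%.

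The subsets differed in Trac. In the Cd163l1-positive subset it had 4 UMIs in 3 of 9 C435A cells and 3 UMIs in 3 of 10 WT cells, at 115 and 55.4 CPM. In the Zbtb16-positive subset it had 40 UMIs in 10 of 14 C435A cells and 42 UMIs in 9 of 11 WT cells, at 508 and 543 CPM, below the 953 and 763 CPM of other T cells. The Trdc-positive subset had Trac in 5 of 15 C435A cells and 17 of 44 WT cells, at 441 and 230 CPM. Of the cells with Trgc1 alone, 8 of 9 over both libraries held Trac, at 551 CPM, so the name gamma delta is not shown for them. Over all subsets, 8 C435A cells and 20 WT cells held both Trdc and Trac, while 15 C435A cells and 34 WT cells held Trdc without Trac. Trdc lies on chromosome 14 at 54142851 to 54148868 and Trac at 54220521 to 54224206 on the same strand (GRCm38), in a locus where a joined alpha chain removes the delta genes from that chromosome. Cells of the Zbtb16-positive subset, which had no Trdc by its definition, thus held Trac in most cases. Trac was found in a smaller share of the Trdc-positive subset in both libraries. These shares were not thinned, and depth differed. The Zbtb16-positive cells had medians of 3889 and 4243 UMIs in the C435A and WT libraries, the Trdc-positive cells 2514 and 2887. Trgc4 did not separate the subsets: over both libraries it had UMIs in 10 of 19 Cd163l1-positive cells, 25 of 59 Trdc-positive cells and 11 of 25 Zbtb16-positive cells, at 225, 240.4 and 212 CPM. Of the beta chain genes, Trbc2 was at 1578 and 1471 CPM in innate T cells of the C435A and WT libraries, and at 1759 and 1648 CPM in other T cells. By subset, Trbc2 was at 1470 and 757 CPM in the Cd163l1-positive cells of the C435A and WT libraries, at 1303 and 1327 CPM in the Trdc-positive cells and at 1880 and 2368 CPM in the Zbtb16-positive cells.

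Type 3 genes, those of the IL-17 programme, marked the Cd163l1-positive subset. Blk, a Src family kinase that IL-17 gamma delta cells need, had 10 UMIs in 5 of 9 C435A cells and 14 UMIs in 5 of 10 WT cells of that subset. Outside it, Blk had 3 UMIs in the C435A library (1 in the Trdc-positive and 2 in the Zbtb16-positive subset) and 13 UMIs in the WT library (12 and 1). Over all innate T cells Blk was at 74.6 and 74.1 CPM in the C435A and WT libraries, against 1.56 and 1.24 CPM in other T cells. B cells, which use the same kinase, had 106 and 94.5 CPM. Sox13, a transcription factor that specifies this lineage in the thymus, had 4 UMIs in 3 C435A cells and 4 UMIs in 2 WT cells of the Cd163l1-positive subset. It was at 28.7 and 16.5 CPM over all innate T cells of the C435A and WT libraries, and had 2 and 0 UMIs in all 1427 and 1592 other T cells.

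Il23r, the receptor chain for IL-23, had 3 UMIs in 3 C435A cells and 8 UMIs in 6 WT cells. The IL-17 cytokines were almost unseen: Il17a had 2 UMIs in 1 C435A cell and 1 UMI in each of 2 WT cells, and Il17f had 0 UMIs in both libraries. Maf, a transcription factor of IL-17 cells and of other effector T cells, had 25 UMIs in 6 C435A cells and 12 UMIs in 4 WT cells of the Cd163l1-positive subset, and 23 UMIs in 9 C435A cells and 6 UMIs in 5 WT cells of the Zbtb16-positive subset.

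Tmem176a and Tmem176b, a pair of genes for membrane channel proteins, were among the markers that name these cells. They lie head to head on chromosome 6 (GRCm38), Tmem176a at 48840919 to 48847071 on the plus strand and Tmem176b at 48833818 to 48841496 on the minus strand, so that their annotated first parts overlap. The sources used here do not say whether the counting used strand, so UMIs of the overlap may be shared between the genes. The RefSeq starts used for the windows below differ from this annotation. They lie inside the bounds above for both genes, and by those starts the pair does not overlap. The start windows of the pair, 250 bases before to 50 after each start (RefSeq, GRCm38.p6), are chr6:48841406-48841705 on the plus strand for Tmem176a and chr6:48841325-48841624 on the minus strand for Tmem176b. They are shown because the genes were found in the same cells, and capitals mark the 219 bases that the windows share, read on opposite strands:
Tmem176a: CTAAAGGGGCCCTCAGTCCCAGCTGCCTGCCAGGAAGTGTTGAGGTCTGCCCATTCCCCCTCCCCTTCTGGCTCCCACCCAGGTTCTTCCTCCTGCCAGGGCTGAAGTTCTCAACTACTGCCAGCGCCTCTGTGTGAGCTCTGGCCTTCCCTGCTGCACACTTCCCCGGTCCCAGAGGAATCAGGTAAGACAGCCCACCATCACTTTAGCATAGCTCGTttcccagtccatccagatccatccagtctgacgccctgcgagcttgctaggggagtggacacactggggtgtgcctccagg
Tmem176b: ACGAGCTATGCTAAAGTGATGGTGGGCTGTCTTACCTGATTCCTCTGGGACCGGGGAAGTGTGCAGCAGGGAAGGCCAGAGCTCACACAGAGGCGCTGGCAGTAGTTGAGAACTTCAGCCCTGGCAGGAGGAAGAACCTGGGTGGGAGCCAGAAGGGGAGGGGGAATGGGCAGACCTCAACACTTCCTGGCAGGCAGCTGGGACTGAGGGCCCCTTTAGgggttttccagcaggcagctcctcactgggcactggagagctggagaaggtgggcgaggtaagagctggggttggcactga

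Tmem176b had 32 UMIs in 13 C435A cells and 55 UMIs in 15 WT cells, and Tmem176a had 15 UMIs in 9 C435A cells and 65 UMIs in 16 WT cells. Both were found in the same cells more often than apart: 8 C435A cells and 13 WT cells had both, 1 and 3 had Tmem176a alone, 5 and 2 had Tmem176b alone, and 27 and 53 had neither. The Cd163l1-positive subset had Tmem176b in 7 of 9 C435A cells and 4 of 10 WT cells, with 519 and 259 CPM, while the Trdc-positive subset had it in 1 of 15 and 6 of 44 cells, with 80.2 and 78.4 CPM. Innate T cells as a whole had 184 and 151 CPM of Tmem176b in the C435A and WT libraries and other T cells 42.8 and 57.3 CPM, a log2 difference of 2.10 and 1.397. Macrophages and dendritic cells also carry both genes, and 41.5% of the Tmem176a UMIs and 32.7% of the Tmem176b UMIs of WT innate T cells came from 1 cell. After thinning, Tmem176b was seen in 14.6% and 9.86% of innate T cells of the C435A and WT libraries, in 1.86% and 1.78% of other T cells and in 1.75% and 1.97% of B cells. The unthinned shares of innate T cells were 31.7% and 21.1%.

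Ramp1, the co-receptor for the sensory nerve peptide CGRP, was found in most cells of the Zbtb16-positive subset. It had 32 UMIs in 11 of 14 C435A cells and 24 UMIs in 9 of 11 WT cells there, at 407 and 311 CPM. The Cd163l1-positive subset had Ramp1 in 3 of 9 C435A cells and 4 of 10 WT cells, at 173 and 92.3 CPM. Over all innate T cells it was at 270 and 206 CPM in the C435A and WT libraries, against 68.4 and 98.1 CPM in other T cells, a log2 difference of 1.98 and 1.07. After thinning it was seen in 26.8% and 22.5% of innate T cells, in 5.64% and 7.76% of other T cells and in 0.833% and 0.620% of B cells. The unthinned shares of innate T cells were 51.2% and 45.1%. Of the 6 markers that name these cells, the rule used Trdc, Zbtb16 and Cd163l1, so UMIs of those 3 only describe the choice. Of the 3 that the rule did not use, Tmem176a, Tmem176b and Ramp1 all had UMIs in each of the subsets.

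The Zbtb16-positive subset had transcripts of several cytokines and costimulatory receptors. Il4, the cytokine that natural killer T cells store as message, had 4 UMIs in 2 C435A cells and 5 UMIs in 3 WT cells, all in this subset. Il17rb, a receptor chain for IL-25, had 5 of its 7 UMIs in the C435A library and 8 of its 9 UMIs in the WT library here. Ifng, the type 1 cytokine, had 11 UMIs in 2 C435A cells and 3 UMIs in 2 WT cells here, of 12 and 7 in all. Il5, Il1rl1 and Areg, further genes of the type 2 list, had 0 UMIs in all innate T cells. Gata3, the type 2 lineage regulator, was found in 11 of 14 C435A cells and 9 of 11 WT cells, at 267 and 285 CPM, and in 3 of 15 and 9 of 44 cells of the Trdc-positive subset, at 60.1 and 57.5 CPM. Icos, a costimulatory receptor, had 39 UMIs in 10 C435A cells and 23 UMIs in 7 WT cells of the Zbtb16-positive subset. Cd28, the main costimulatory receptor of alpha beta T cells, was at 559 and 298 CPM there and had 0 UMIs in the Cd163l1-positive subset of both libraries. Klrb1c, which encodes NK1.1, had only 3 UMIs in the C435A library and 8 in the WT library over all innate T cells, and no natural killer T or mucosal-associated invariant subset was named from it.

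Lef1 and Dapl1 were higher in the Trdc-positive subset than in the Cd163l1-positive and Zbtb16-positive subsets of both libraries. Lef1, a transcription factor of naive and memory T cells, was at 361 CPM in the Trdc-positive subset of both libraries, and at 28.8 and 166 CPM in the Cd163l1-positive subset of the C435A and WT libraries. Dapl1, a gene of naive T cells, had 6 of its 7 UMIs in the C435A library and all 34 of its UMIs in the WT library in the Trdc-positive subset.

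Klrd1, which encodes the NK receptor CD94, ranked first among genes higher in cells with Trdc, which include 18 of the 19 Cd163l1-positive cells. It was at 621 CPM in C435A cells with Trdc and at 32.5 CPM in those without, and at 269 and 8.41 CPM in the same comparison of WT cells, a log2 difference of 4.26 and 4.999. Nkg7, a cytotoxic granule protein, was 3.54 and 1.42 log2 units higher in cells with Trdc in the C435A and WT libraries. Ikzf2, which encodes Helios, was 1.36 and 2.32 higher, and Itga4, the alpha-4 integrin chain, 2.13 and 3.08 higher. Ccl5, the chemokine RANTES, was 4.88 and 0.81 higher. In the WT library 1 cell with Trgc1 alone held 123 of the 128 Ccl5 UMIs of cells without Trdc. Klf2, the transcription factor that keeps lymphocytes recirculating, was 1.14 and 1.31 higher. By subset over both libraries, Nkg7 was at 777 CPM in Cd163l1-positive and 671 CPM in Trdc-positive cells, Ccl5 at 2701 and 2549 CPM, and Klf2 at 754 and 477 CPM. Ccl5 of the Cd163l1-positive cells rested on single cells: of its 240 UMIs, 1 C435A cell held 141 and 1 WT cell held 77. Ccl5 was found in 7 of 19 Cd163l1-positive and 30 of 59 Trdc-positive cells, and Nkg7 in 8 and 34 of them. The other 4 of the 10 genes named by this rule, Saraf, Smc4, Ms4a4b and Ptprc, were 0.65 to 1.99 higher. Eomes and Xcl1, a transcription factor and a chemokine of cytotoxic lymphocytes, had all their UMIs in the Trdc-positive subset: 2 and 2 in the C435A library, 15 and 17 in the WT library.

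Genes lower in cells with Trdc included Lmo4, a cofactor of transcription, at -1.52 and -2.93 log2 units in the C435A and WT libraries. Id2, an inhibitor of E proteins that innate lymphocytes need, was at -1.07 and -1.52, and the IL-18 receptor gene Il18r1 at -1.24 and -1.09. Chil3 and Lyz2, which are genes of macrophages, were also among them, at -4.85 and -4.72 for Chil3 and at -1.60 and -0.73 for Lyz2. The other 5 named by the rule were Cd9, Dusp1, Capg, Ftl1 and mt-Cytb. The 15-gene myeloid list had UMIs of 10 genes in innate T cells of the C435A library and of 12 genes in the WT library, and its part in these differences was not tested.

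**Figure D2:**
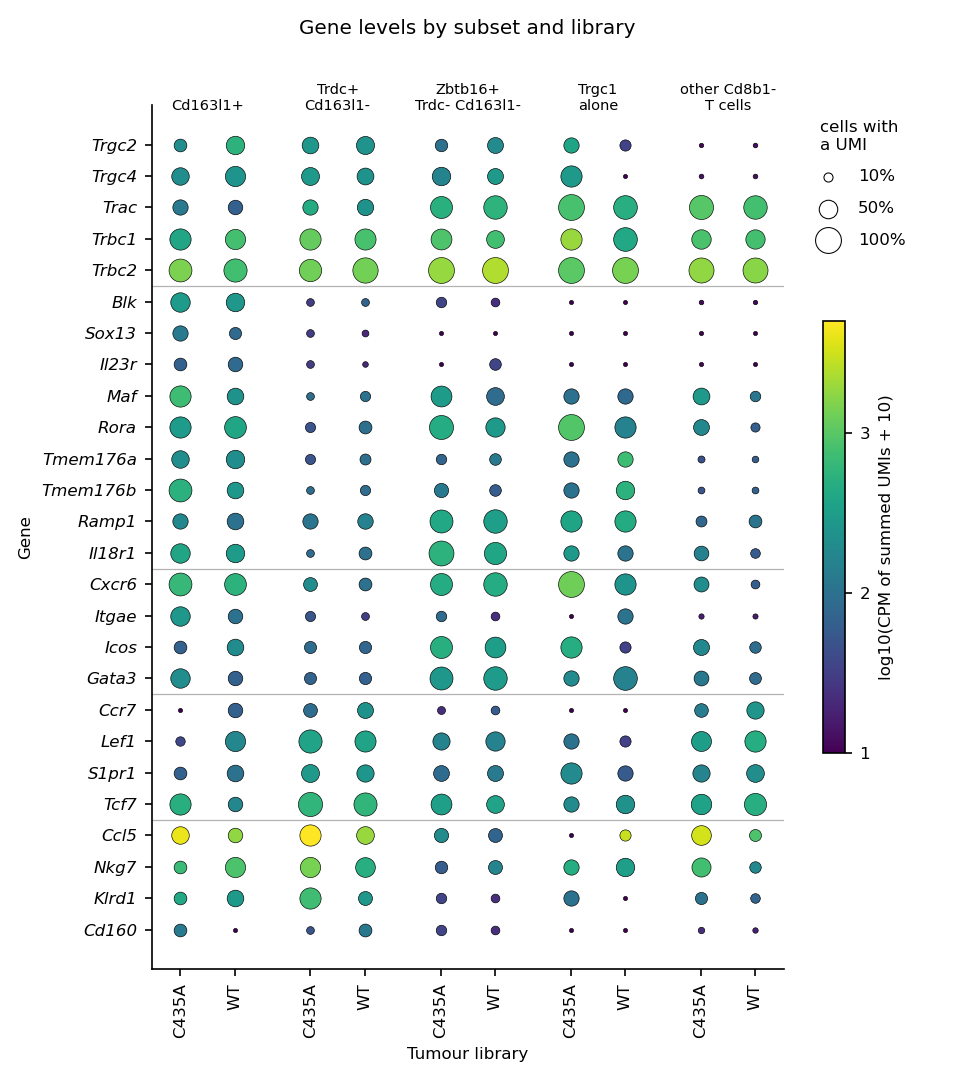
Each dot gives the CPM of summed UMIs (colour, log10 of CPM plus 10) and the percent of cells with a UMI (size) for a gene (rows) in the 4 subsets and in other T cells, with the C435A column left of the WT column. Among the subsets, leaving aside the few cells with Trgc1 alone, Blk, Sox13 and Tmem176b were highest in the Cd163l1-positive subset, Gata3, Icos and Ramp1 in the Zbtb16-positive subset, and Lef1 in the Trdc-positive subset.

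The same split was seen cell by cell. The type 3 list, summed without Cd163l1, had a median of 43.8 UMIs per 10000 in C435A cells and 42.5 in WT cells of the Cd163l1-positive subset, with ranges of 3.47 to 120 and 0 to 113. In the Trdc-positive subset the medians were 4.50 and 5.79 with ranges of 0 to 30.3 and 0 to 96.4, and 6 of 15 C435A cells and 15 of 44 WT cells had none. In the Zbtb16-positive subset the medians were 26.0 and 23.2. The ranges of the subsets overlapped in both libraries. The naive and recirculation list ran the other way, with medians of 49.5 and 41.8 UMIs per 10000 in the Trdc-positive subset of the C435A and WT libraries, and of 23.9 and 18.8 in the Cd163l1-positive subset. The type 1 and cytotoxic list had a median of 50.8 in C435A cells and 16.7 in WT cells of the Trdc-positive subset, with ranges of 4.50 to 289 and 0 to 401. Its medians in the Cd163l1-positive subset were 9.997 and 17.9, so this list did not split these subsets in the WT library.

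**Figure D3:**
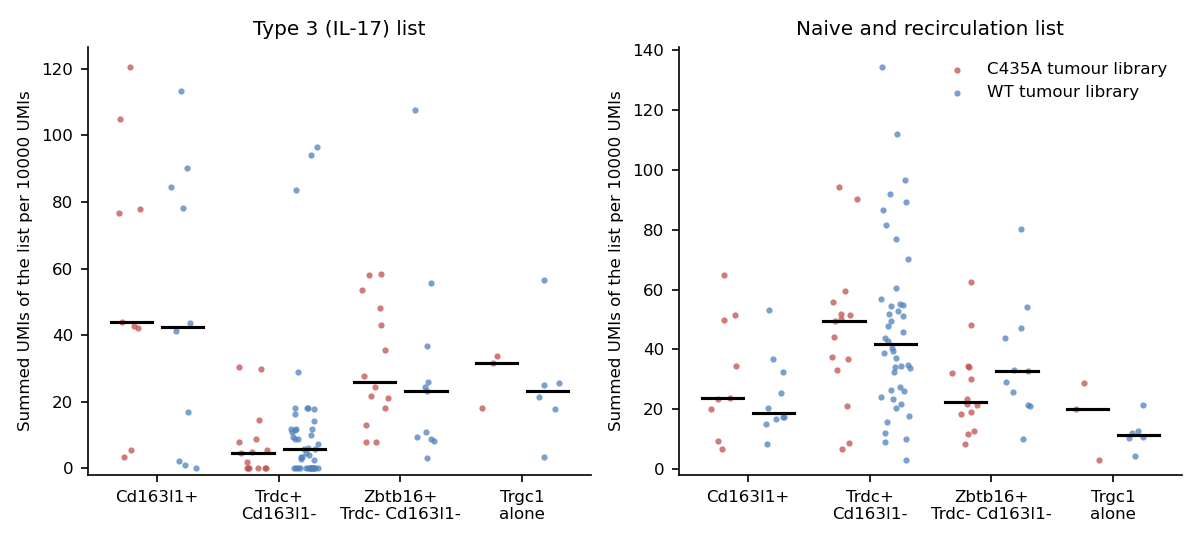
Each point is a cell, and the vertical axes give the summed UMIs of the type 3 list (left) and of the naive and recirculation list (right) per 10000 UMIs, by subset, for the C435A (red, left) and WT (blue, right) tumour libraries, with medians as black lines. The type 3 medians were 43.8 and 42.5 in the Cd163l1-positive subset of the C435A and WT libraries, against 4.50 and 5.79 in the Trdc-positive subset.

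Set against other T cells of the same library, the innate T cells had higher levels of several type 3 genes. A gene counted as higher or lower at 2-fold, among genes with at least 20 UMIs in innate and other T cells together and at least 5 UMIs expected in innate T cells at the pooled level. Genes found nearly only in innate T cells, such as Blk and Sox13, were too few in UMIs for this count. Over all genes, 1.9% were at least 2-fold higher and 8.67% at least 2-fold lower in innate T cells of the C435A library, and 2.8% and 4.02% in those of the WT library. Of the type 3 list, 5 of 9 measured genes were at least 2-fold higher in the C435A library and 7 of 11 in the WT library, with 0 lower in both. Ramp1, Il18r1, Tmem176a, Tmem176b and Serpinb1a were among them in both libraries, and the transcription factor gene Rora and the chemokine receptor gene Ccr2 in the WT library. Of these, Ramp1, Tmem176a and Tmem176b are markers that name these cells, so their part in the count is a description. The list medians were 1.24 and 1.07 on the log2 scale in the C435A and WT libraries, beside -0.05 and 0.09 over all genes. These medians were the values of such markers, Tmem176a in the C435A library and Ramp1 in the WT library. Scaling by TMM or by median ratios moved all log2 ratios against other T cells by -0.12 and -0.11 in the C435A library and by -0.21 and -0.19 in the WT library. Relative to these shifts no named gene higher than other T cells changed direction. Of the residency list, 1 of 8 measured genes was at least 2-fold higher (Cxcr6) and 1 lower (Itga1) in the C435A library, and 3 of 11 were higher (Cxcr6, Jaml and Nr4a2) and 0 lower in the WT library.

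Ikzf2 was at 471 and 433 CPM in innate T cells of the C435A and WT libraries, against 134 and 131 CPM in other T cells. Foxp3-positive regulatory T cells, which carry the same gene, were kept out by the rule. Cd7, a surface protein of early T and NK cells, was at 207 and 189 CPM in innate T cells, against 25.9 and 28.8 CPM in other T cells. Cxcr6, the receptor for Cxcl16 that holds lymphocytes in the lung, was at 465 and 252 CPM in innate T cells and at 203 and 53.4 CPM in other T cells. It was seen in 39.0% and 19.7% of innate T cells of the C435A and WT libraries after thinning, in 14.6% and 4.45% of other T cells and in 0.0877% and 0.0729% of B cells, and the unthinned shares of innate T cells were 58.5% and 42.3%. Cxcr6 was frequent in the Cd163l1-positive subset, with UMIs in 7 of 9 C435A cells and 7 of 10 WT cells, and in the Zbtb16-positive subset, with UMIs in 10 of 14 and 9 of 11 cells. Itgae, the CD103 integrin chain, was at 97.5 and 38.4 CPM in innate T cells and at 7.18 and 6.01 CPM in other T cells. Il7r, the IL-7 receptor, was at 889 and 617 CPM in innate T cells and at 246 and 416 CPM in other T cells.

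The other named genes that were higher in innate T cells of both libraries were Chn2, Lmo4, Klrk1, St3gal6, Serpinb1a, Jaml, Klrd1, Il18r1 and Gzma. Klrk1 encodes the activating receptor NKG2D, and was 1.87 and 1.67 log2 units higher in the C435A and WT libraries. Jaml, an adhesion molecule through which epithelial cells costimulate gamma delta T cells, was 2.55 and 1.38 higher. The level of Gzma, which encodes granzyme A, rested on single cells: 1 cell held 98.3% of its 290 UMIs in the C435A library, and 1 cell held 75.6% of its 86 UMIs in the WT library.

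The named genes that were lower in innate T cells were Trac and 9 genes of neutrophils, red cells and macrophages. Among them S100a8 had 0 UMIs in 41 C435A cells and 12 UMIs in 71 WT cells, against 250 and 895 CPM in other T cells. UMIs of such genes can come from other cells caught in the same droplet, and their part in the difference was not tested. The 7-gene neutrophil list was at 23.0 and 115 CPM in innate T cells of the C435A and WT libraries, with Retnlg at 0 in both, and at 847 and 2585 CPM in other T cells, where single cells held up to 4215 and 4108 UMIs per 10000. The red cell list was at 23.0 and 19.2 CPM in innate T cells, with Hba-a1 and Alas2 at 0 in both libraries, and at 397 and 1653 CPM in other T cells. Without the cells that held at least 2 UMIs of 25 defining markers of other lineages, S100a8 and S100a9 were higher in innate T cells of the WT library, at 0.55 and 0.12 log2 units.

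Some lists did not keep their direction between the libraries. The cell cycle list had a median of -1.43 in the C435A library, where 13 of 20 genes were at least 2-fold lower, and of 0.68 in the WT library, where 5 of 20 were at least 2-fold higher. Mki67, a protein of dividing cells, was at 17.2 CPM in C435A innate T cells against 226 CPM in C435A other T cells, and at 159 CPM in WT innate T cells against 65.8 CPM in WT other T cells. It was found in 2 C435A and 7 WT innate T cells. The list of S100 and effector cytoskeleton genes had medians of -0.62 and 0.65 in the C435A and WT libraries. S100a4, one of its members, was at 907 and 922 CPM in innate T cells, and at 1600 and 351 CPM in other T cells, so that the level in the other T cells differed between libraries more than that in the innate T cells. The type 1 and cytotoxic list had medians of 0.06 and 0.88, and the naive and recirculation list of -0.19 and -0.59.

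**Figure D4:**
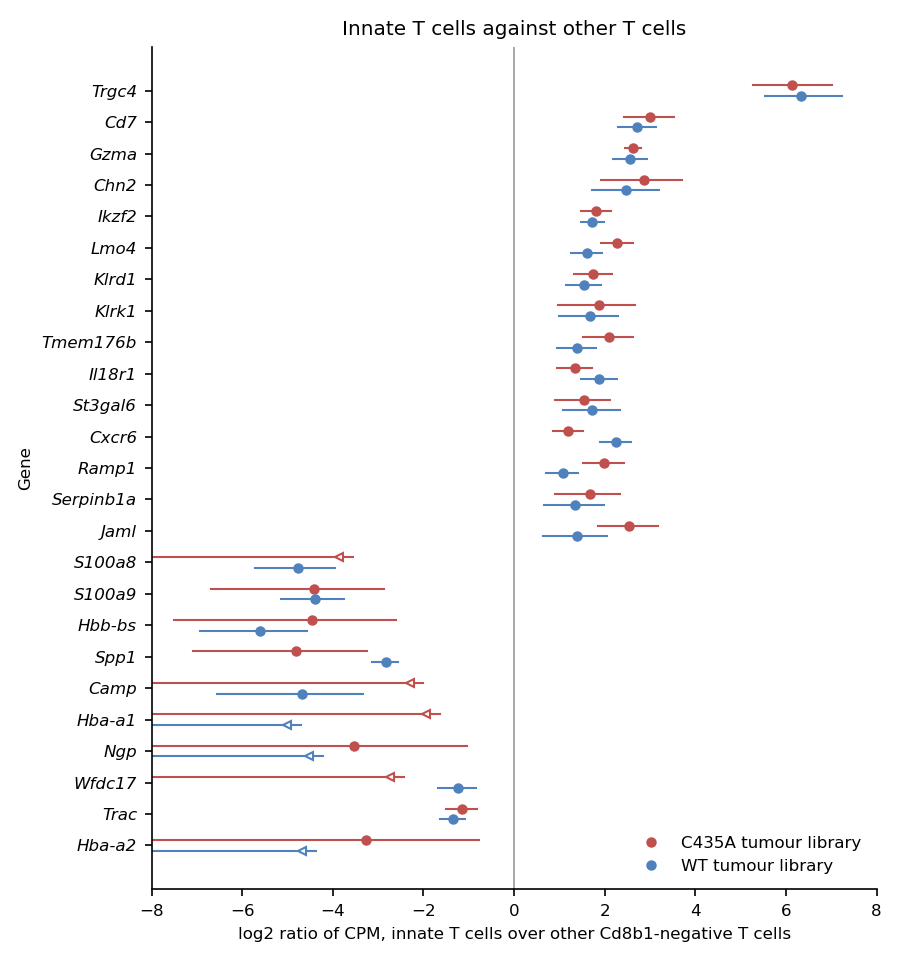
Points give the log2 ratio of CPM in innate T cells over other Cd8b1-negative T cells for the 25 named genes (rows), with the C435A tumour library (red) above the WT tumour library (blue) and lines for the 95% conditional interval; open triangles are genes with 0 UMIs in innate T cells, drawn at the floor of 3 counts. Trgc4 was 6.12 and 6.33 higher, and Trac was at -1.15 and -1.35.

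Between the libraries, innate T cells of the C435A library had more Maf, Icos, Cxcr6 and Il18r1 and less Ccr7 than those of the WT library. Over all genes, 3.22% were at least 2-fold higher and 7.52% at least 2-fold lower in the C435A library, 142 and 332 of 4414. Scaling by TMM or median ratios moved these ratios by -0.02 and -0.06. Maf was at 304 CPM in C435A cells and 107 CPM in WT cells, a log2 difference of 1.51 (0.88 to 2.14), with 53 UMIs in 17 C435A cells and 39 UMIs in 17 WT cells. Icos was at 287 CPM in C435A cells and 129 CPM in WT cells, a difference of 1.15 (0.55 to 1.76). The difference in Cxcr6 was 0.88 (0.43 to 1.33) and that in Il18r1 0.95 (0.43 to 1.47).

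These genes were higher in the C435A library in other T cells too: Maf was at 270 CPM in C435A other T cells and 106 CPM in WT other T cells, Cxcr6 at 203 and 53.4 CPM, Icos at 174 and 79.6 CPM, and Il18r1 at 140 and 50.03 CPM. The differences were thus seen in both kinds of T cells, and whether they differed in size between the kinds was not tested. The mix of subsets also moves with these genes. Within the Zbtb16-positive subset Icos was at 495 CPM in C435A cells and 298 CPM in WT cells, while Cxcr6 was at 445 and 453 CPM. With cells with and without Trdc given the same weight in both libraries, the difference in Maf was 1.63, in Icos 0.89, in Cxcr6 0.69 and in Il18r1 0.73. Without the 7 C435A cells and 21 WT cells that held at least 2 UMIs of the defining markers of other lineages, the difference in Maf was 1.22, in Icos 0.52, in Cxcr6 0.42 and in Il18r1 0.36.

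The other named genes higher in C435A cells were Gzma, Hspa1a, Rbm3, Pycard, Itgal and Fosb. Gzma rested on the single cells given above. Hspa1a, a heat shock protein gene, was at 493 CPM in C435A cells and 222 CPM in WT cells, and Fosb, an immediate early gene, at 189 and 82.3 CPM. Both genes respond to tissue digestion, and the immediate early and dissociation list as a whole had a median of -0.12, with 2 of 20 genes at least 2-fold higher. Rbm3, a cold-induced RNA-binding protein gene, was at 1285 CPM in C435A cells and 702 CPM in WT cells. It was also at 1429 CPM in C435A other T cells and 651 CPM in WT other T cells.

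The median gene of the naive and recirculation list was lower in the C435A library, at -0.63 over 13 measured genes. Of these, 0 were at least 2-fold higher and 4 at least 2-fold lower, among them Ccr7, Dapl1 and Bach2. Ccr7, the chemokine receptor that guides T cells into lymph nodes, had 5 UMIs in 5 C435A cells and 49 UMIs in 20 WT cells, a difference of -2.23 (-3.91 to -0.91). With cells with and without Trdc given the same weight in both libraries, the list median was -0.43. Summed over the list, the difference was -0.18 (-0.34 to -0.03). Within subsets, the per-cell medians of the list ran both ways. In C435A and WT cells they were 49.5 and 41.8 UMIs per 10000 in the Trdc-positive subset and 23.9 and 18.8 in the Cd163l1-positive subset. In the Zbtb16-positive subset they were 22.6 and 32.9.

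The tissue residency list had a median of 0.61, with 4 of 10 measured genes at least 2-fold higher and 1 at least 2-fold lower in C435A cells. The 4 were Icos, Itgae, Jaml and Nr4a1, an immediate target of receptor signalling, and the lower one was Nr4a2. Itgae was at 97.5 CPM in C435A cells and 38.4 CPM in WT cells, and Jaml at 138 and 57.6 CPM. The type 3 list had a median of 0.48 with 2 of 12 genes at least 2-fold higher, Maf and Actn2, and 1 at least 2-fold lower, Tmem176a. Tmem176a was at 86.1 CPM in C435A cells and 178 CPM in WT cells, where 1 cell held 41.5% of its UMIs. Without the cells with defining markers of other lineages its difference was -0.45 in place of -1.05, and with a rule sum of at least 3 it was -0.16.

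Genes of the response to type I interferon had a median near that of all genes. The list had a median of -0.16 over 23 measured genes, beside -0.01 over all genes, with Slfn1 at least 2-fold higher and Ifi27l2a at least 2-fold lower, and the interferon gamma list a median of 0.06 over 14 genes, with Gbp2 at least 2-fold lower. Irf7 itself, the gene altered in the tumour cells, had 6 UMIs in 6 C435A innate T cells and 14 UMIs in 11 WT innate T cells, and its difference of -0.16 had an interval of -1.82 to 1.31. Ifi27l2a, an interferon-induced gene, was at 212 CPM in C435A cells and 733 CPM in WT cells. In the WT library 1 cell held 24.7% of its UMIs. Isg15, a ubiquitin-like modifier, had 11 UMIs in 5 C435A cells and 14 UMIs in 11 WT cells.

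The named genes that were lower in the C435A library were all genes of macrophages and of antigen presentation. For each of them 1 WT cell held at least 45.2% of the WT UMIs, although Cd74 and Apoe had UMIs in 30 and 21 WT cells. Lyz1 had 1 UMI in C435A cells and 350 UMIs in WT cells, of which 99.7% were in 1 cell, and 85.1% of the 670 Apoe UMIs of WT cells were in 1 cell. C1qa and Ccl9 had 0 UMIs in C435A cells and 69 and 60 UMIs in 5 and 8 WT cells. The class II antigen presentation genes Cd74, H2-Eb1, H2-Ab1 and H2-Aa were 4.02 to 4.50 log2 units lower in the C435A library, and single WT cells held 45.2% to 54.6% of their UMIs. The myeloid list was at 3299 CPM in C435A innate T cells and 8398 CPM in WT innate T cells, with a range over cells of 0 to 310 and 0 to 899.8 UMIs per 10000. Cd209a, Xcr1 and Clec9a, markers of dendritic cells, were at 0 in both libraries. With each cell weighted alike, the difference in Cd74 was -3.03. Without the cells with defining markers of other lineages, it was -0.32. Whether the remaining UMIs were free RNA or shared droplets was not tested.

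Markers of other cell types were low beside these. The B and plasma cell list was at 677 and 916 CPM in innate T cells of the C435A and WT libraries, close to the 749 and 1088 CPM of other T cells, with Mzb1 at 0 in all 4 groups. Of the NK list of 8 genes, 3 had UMIs in each library, and Klra4, Klra8, Klra9 and Klri2 were at 0 in both. The NK list was at 34.4 and 65.8 CPM in all, above the 19.4 and 28.5 CPM of other T cells. Of the innate lymphoid list of 8 genes, Il1rl1, Il5, Rxrg and Il22 were at 0 in both libraries. The melanoma list was at 74.6 and 357 CPM in innate T cells of the C435A and WT libraries and at 357 and 979 CPM in other T cells. Scrublet, a doublet caller, put 0 of the 41 C435A cells and 4 of the 71 WT cells among the highest scores.

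**Figure D5:**
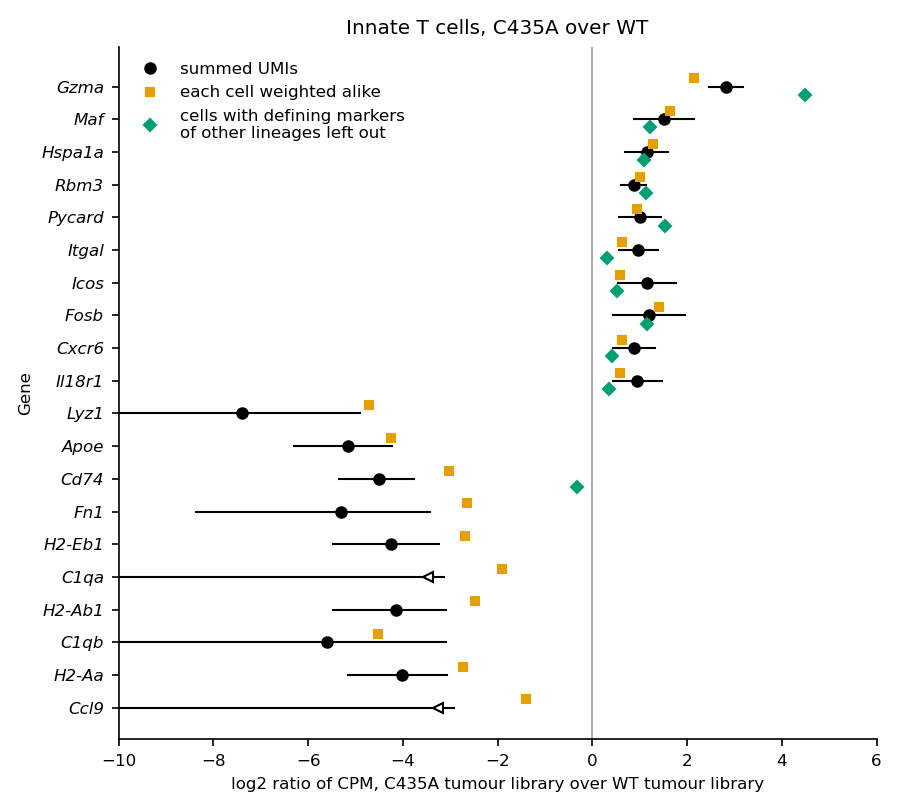
Points give the log2 ratio of CPM in innate T cells of the C435A over the WT tumour library for the 20 named genes (rows), from summed UMIs with the 95% conditional interval (black; open triangles mark genes with 0 UMIs in C435A cells, at the floor of 3 counts), with each cell weighted alike (orange) and without cells holding defining markers of other lineages (green, where measured). Maf was 1.51 higher and 1.22 higher without those cells, while Cd74 was at -4.50 and at -0.32 without them.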

How the data were processed

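The values used are counts of UMIs per gene and barcode, as the authors deposited them, for 1 library per group. Per the labels' protocols, lung tissue was digested with collagenases and depleted of red blood cells before the sort. Cell Ranger and the build GRCm38 are named per the submitters' processing notes, and version 7.2.0 per the file headers. The sources used here do not give the annotation release, the handling of introns or the calling of cells. Levels depend on these, since intron reads and free RNA enter the counts.

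Barcodes with at least 500 UMIs and under 20% mitochondrial UMIs were kept, 10313 of 10373 for C435A and 10051 of 10156 for WT. The innate T cells, the gene lists and the tests were chosen with earlier results of these data known. In each library UMIs of a group's cells were added up and scaled to CPM. With 1 library per group no test between conditions was made. Log2 ratios have exact conditional intervals and shares Clopper-Pearson intervals, both at 95% and for counting error only, and in a ratio a library at 0 counts took the floor of 3. Genes of the rule were left out of lists and named genes. Named genes between libraries had at least 50 UMIs over both and 50 CPM in one, and were the 10 highest and 10 lowest by the interval bound nearest 0. Against other T cells the same minimums held in each library, with 15 and 10 genes, and between cells with and without Trdc 10 genes each way. Other genes were picked from the 31 lists after values were seen. Doublets were not removed, and Scrublet scores (0.8% per 1000 barcodes, the highest left out) were an alternative. Shares of cells with a UMI were thinned to 1000 UMIs per cell. TMM scaling was taken from edgeR 4.0.16 and median ratios from DESeq2 1.42.0 in R 4.3.3. The rest used Python 3.11.15 with numpy 2.4.6, scipy 1.17.1, pandas 2.3.3, scanpy 1.11.5 and matplotlib 3.10.9. Steps across genes were tested on simulated data. Positions are from an annotation of GRCm38 and start windows from RefSeq. Some single genes of the lists are not reported here.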

Additional observations from a re-analysis of the deposited data

How the results depend on the processing

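Both shares of innate T cells were lower in the C435A library under every alternative but one. Leaving out cells with at least 2 UMIs over 44 markers of other lineages left 3 C435A cells and 0 WT cells, with differences of 0.0291 points of kept and 0.0636 points of CD3-positive barcodes. That setting gave no value for comparisons that need WT innate T cells. After thinning, the differences were -0.0565 and -0.208 points. The share of innate T cells with Trdc differed by -20.0 points (-38.8 to -0.651), and the interval held 0 with a rule sum of at least 3 (upper bound 0.347), without the highest Scrublet scores (1.09), without cells holding defining markers (1.96) and after thinning, where the difference was -0.916 points (-20.3 to 15.5). The interval for Cd163l1 held 0 throughout.

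The 142 genes at least 2-fold higher in C435A cells became 8 with a minimum of 50 UMIs, 840 with a minimum of 5, 227 with each cell weighted alike and 90 without cells holding defining markers of other lineages. The 332 lower genes became 76, 1189 and 128 under the first, second and last of these.

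On the log2 scale, the type 3 median between libraries, 0.48, became 0.73 with a minimum of 5 UMIs, 0.19 without cells holding defining markers and 0.77 with a rule sum of at least 3. The naive and recirculation median, -0.63, became -0.39 with a minimum of 50 UMIs, -0.45 without the highest Scrublet scores, -0.97 without cells holding defining markers, -0.46 with a rule sum of at least 3, -0.43 with cells with and without Trdc weighted alike and -0.42 without the deepest cell of each library.

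Against other T cells of the C435A library, the type 3 median of 1.24 became 0.91 and 1.67 with minimums of 50 and 5 UMIs, 1.04 without cells holding defining markers and 0.84 with a rule sum of at least 3. The naive median of -0.19 became -0.45 with each cell weighted alike and -0.89 without cells holding any of the 44 markers. In the WT library the type 3 median of 1.07 became 1.37 with a minimum of 5 UMIs, 0.86 by TMM, 0.88 by median ratios, 1.73 with each cell weighted alike, 1.33 without the highest Scrublet scores and 1.42 without cells holding defining markers. The naive median of -0.59 became -0.43, -0.79, -0.78, -0.47, -0.71 and -0.45 under the same 6 settings and -0.40 with a rule sum of at least 3. S100a8 and S100a9 against other T cells of the WT library turned to 0.55 and 0.12 without cells holding defining markers. The causes were not tested. Of the other values, 1477 stayed within their spread and 308 moved.

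Leaving out the defining markers, Cd163l1, the Cd8b1, Ncr1 and Klre1 criteria, every exclusion gene or the deepest cell was chosen after seeing the data. No paired analysis was possible because each group has 1 library. The 41 and 71 cells limit single genes to those with many UMIs, and no interval covers animals, sorting or capture.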
